A study of Mus musculus with 3 samples.

Results

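The calcium pumps, pump inhibitors, calsequestrins and release genes of the sarcoplasmic reticulum were examined in skeletal muscle taken at postnatal day 42 from mice of the outbred ICR stock. The set holds 10 genes, chosen by symbol for their known role, with no threshold on measured values though with earlier results of these data known, of 24481 gene rows in each library. All 10 were found, each on its own row, and all 10 passed the minimum on expression described below. The study, whose title names leaf extracts of the dwarf bamboo Sasa quelpaertensis and fatigue, had 3 groups with 1 library each. One library is labelled control, another exercise control, and the last comes from exercised mice that also received a treatment labelled SQH. No allele or genotype beyond the stock is given, and the labels name no muscle, exercise protocol, dose or number of animals behind a library.

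Muscle contracts when calcium leaves the sarcoplasmic reticulum and relaxes when it is pumped back. A voltage sensor in the transverse tubule (its main subunit is encoded by Cacna1s) opens the release channel (Ryr1) of the facing reticulum, and junctophilins (Jph1, Jph2) hold the membranes together at the triad. Calsequestrins (Casq1, Casq2) bind calcium inside the reticulum, and the pumps known as SERCA (Atp2a1, Atp2a2) return it there, restrained by the small membrane proteins sarcolipin (Sln) and phospholamban (Pln). In skeletal muscle Atp2a1 is the pump gene of fast-twitch fibres, while Atp2a2 and Casq2 are known from slow-twitch fibres and the heart.

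The values were deposited log2 levels from 3' end libraries, in which the number of reads does not grow with transcript length, so levels of different genes are compared as reads per transcript end. The libraries held roughly 8.13 M to 12.4 M reads, as estimated from the spacing of low values, and ribosomal precursor RNA (Rn45s) took 7.25% to 9.19% of the linear sum. The exercise control library was the shallowest. Genes with a log2 difference of 1 or more (2-fold) were called higher or lower, among the 7857 rows whose mean linear value reached 66.5. With 1 library per group, the spread between animals is unknown and no p-value is given. Values after ± are standard errors from approximate read counts alone and cover neither animals nor library preparation. Lower RNA of a gene in a bulk library cannot be told apart from fewer cells that express it. All 8 skeletal muscle markers were tested and present, with Acta1 between 18.34 and 19.01.

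**Figure D1:**
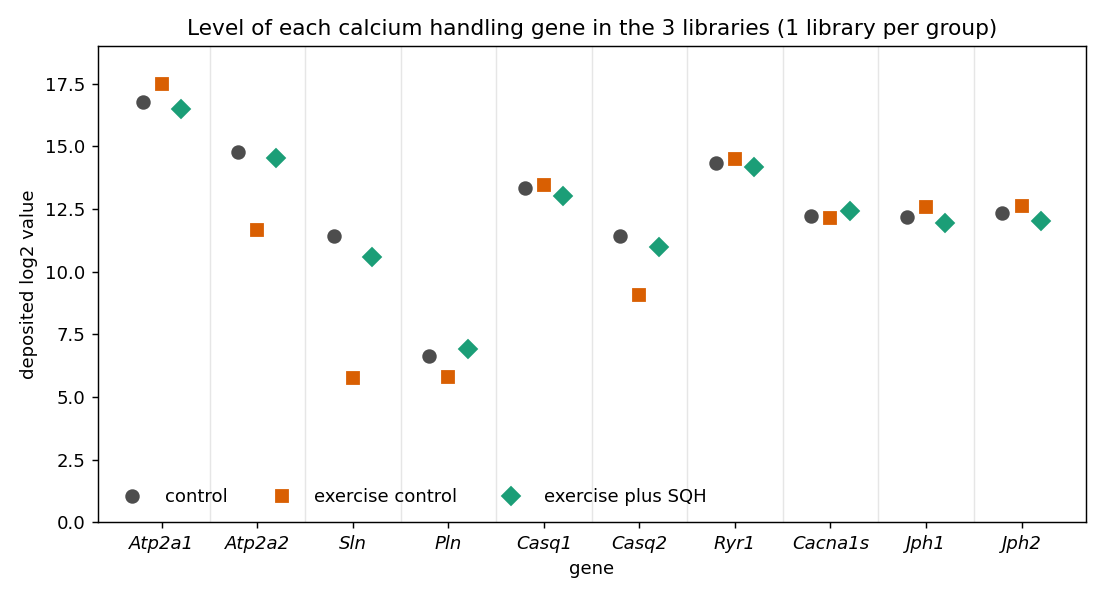
Deposited log2 value (vertical axis) of each of the 10 calcium handling genes (horizontal axis) in the control, exercise control and exercise plus SQH libraries, 1 point per library and no replicate. Atp2a2, Sln and Casq2 have their lowest point in the exercise control library, at 11.64, 5.74 and 9.07.

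Between the exercise control and the control, Sln, Atp2a2 and Casq2 were lower by 2.33 to 5.69 on the log2 scale, and the other 7 genes differed by less than 2-fold. Of the 10 genes, 3 were called lower (Sln, Atp2a2 and Casq2) and 0 higher, where 5.33% of all rows tested were called lower and 2.95% higher. The median difference of the 10 genes was 0.01, beside -0.04 over all rows tested, with 5 genes above 0 (Atp2a1, Casq1, Ryr1, Jph1 and Jph2) and 5 below. At a difference of 1.5-fold, Pln joined the lower genes and Atp2a1 became the 1 higher gene, with 15.5% and 10.1% of all rows called lower and higher at that fold.

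Between exercise plus SQH and the exercise control, 4 of the 10 genes were called higher (Sln, Atp2a2, Casq2 and Pln) and 1 lower (Atp2a1), where 5.68% of all rows tested were called higher and 2.33% lower. Their median difference was -0.03, beside 0.03 over all rows. At 1.5-fold, Jph1 and Jph2 joined the lower genes, with 14.8% of all rows higher and 9.28% lower. Between exercise plus SQH and the control, 0 of the 10 genes were called in either direction, where 1.76% of all rows were called higher and 1.26% lower. Their median difference was -0.27, beside -0.02 over all rows, and 8 of the 10 lay below 0. At 1.5-fold Sln was the 1 gene called lower, with 6.36% of all rows lower and 7.41% higher. The exercise control library enters the first and second of these comparisons, so their opposite signs are not separate results.

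**Figure D2:**
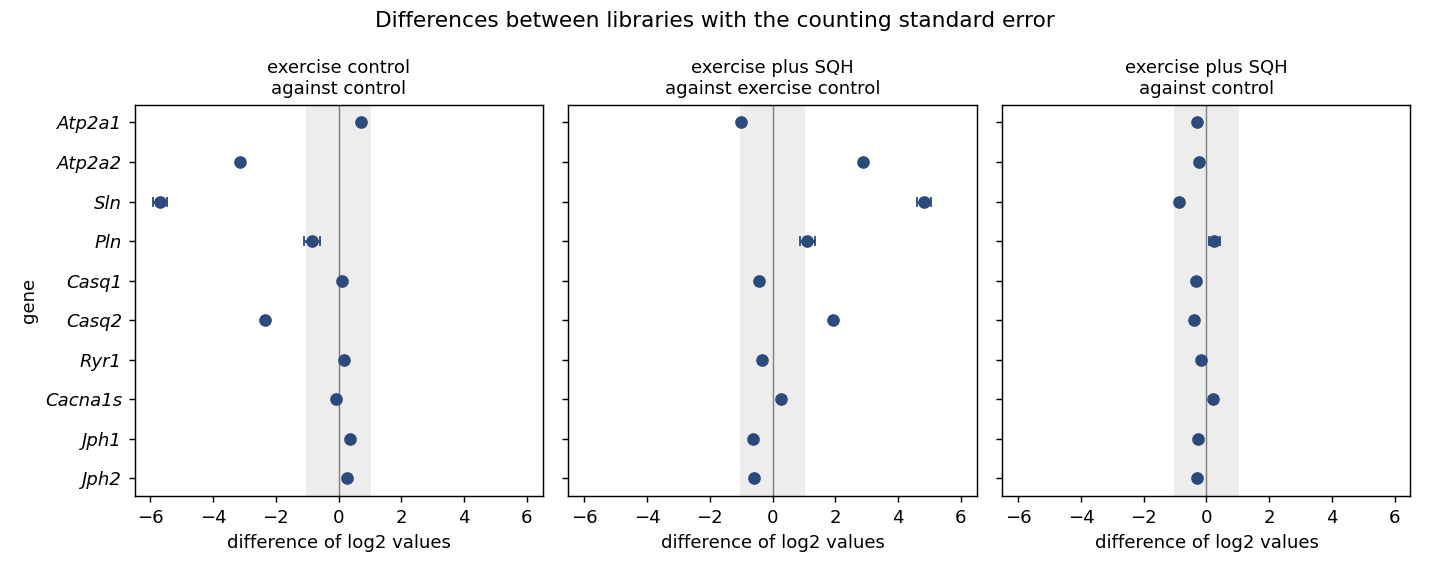
Difference of log2 values (horizontal axis) for each of the 10 genes (vertical axis) in the 3 comparisons, with the counting standard error as bars that are often smaller than the point. The grey band marks differences under 2-fold, and in exercise plus SQH against control all 10 points lie inside it.

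Among the pumps, Atp2a2 stood at 14.77, 11.64 and 14.53 in the control, exercise control and SQH libraries. The control and SQH libraries were alike within 0.24, and the exercise control was far below both. The difference was -3.13 ± 0.03 for the exercise control against the control, an 8.77-fold lower level, and 2.90 ± 0.03 for exercise plus SQH against the exercise control. Atp2a2 lies on chromosome 5 of the mouse build GRCm38, from 122453513 to 122502225 on the minus strand. Its transcripts end differently for the muscle and the general form of the pump, and the gene rows do not separate them.

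Atp2a1 ran the other way, at 16.76, 17.48 and 16.47 in the control, exercise control and SQH libraries. It was among the most abundant rows of every library, ranking 7, 4 and 9 by linear value. The exercise control was higher than the control by 0.72 ± 0.0056, short of the 2-fold rule, and by 0.994 under quantile normalization, close to that rule. SQH lay below the exercise control by just over 2-fold (-1.01 ± 0.0056). That call held under every alternative run, with values from -1.14 to -1.01. Against the control, SQH differed by -0.29 ± 0.0059.

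Reads of Atp2a1 may be shared with a neighbour. Atp2a1 (chromosome 7, 126445858 to 126463108, minus strand) and Rabep2, an endosomal trafficking gene on the plus strand (126428759 to 126449245), meet tail to tail and share 763 exonic bases at the end that a 3' library reads. Rabep2 was listed at 16.32, 17.13 and 15.99, so that the ratio of Atp2a1 to Rabep2 was 1.36, 1.28 and 1.40. The gene rows of this pair moved together, with Rabep2 at 0.81, -1.14 and -0.33 in the 3 comparisons. How reads of the shared stretch were assigned to strands is not given in the sources used here. With both rows summed, the differences of Atp2a1 became 0.76, -1.06 and -0.31, and its call did not change.

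Within each library the 2 pump genes give a ratio of fast to slow pump that no scaling between libraries by a constant can alter. The level of Atp2a1 was 3.98, 57.3 and 3.83 times that of Atp2a2 in the control, exercise control and SQH libraries. Put as a share, Atp2a2 made up 20.1% of the reads of both pump genes in the control (95% Wilson interval 19.9% to 20.3%), 1.71% in the exercise control (1.65% to 1.78%) and 20.7% with SQH (20.5% to 20.9%). These intervals cover counting error only. The log2 ratio moved by 3.85 ± 0.03 from control to exercise control and by -3.90 ± 0.03 from there to SQH, and it differed by -0.05 ± 0.01 between SQH and control. The summed level of both pump genes moved much less, at 17.09, 17.51 and 16.81 on the log2 scale, since Atp2a1 holds most of it. With Rabep2 added to Atp2a1, the Atp2a2 shares were 12.7%, 0.968% and 13.2%.

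The pump inhibitors are very small proteins. Their coding sequences, printed to show how short the reading frames of the most changed gene and its relative are, run from 53853473 to 53853565 on chromosome 9 for Sln and from 53343864 to 53344019 on chromosome 10 for Pln, stop codon excluded, both on the plus strand of GRCm38 and each within 1 coding exon. Sln encodes 31 residues and Pln 52, against 994 for Atp2a1 and 1044 for the longest form of Atp2a2. The start and stop codons are in capitals, and the sequences are those of GENCODE transcripts.
Sln: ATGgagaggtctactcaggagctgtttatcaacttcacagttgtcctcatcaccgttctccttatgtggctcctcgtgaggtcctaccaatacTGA
Pln: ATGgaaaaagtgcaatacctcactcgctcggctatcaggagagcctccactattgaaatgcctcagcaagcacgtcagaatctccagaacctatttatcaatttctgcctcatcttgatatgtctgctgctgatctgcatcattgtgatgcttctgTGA

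Sln had the widest range of the 10 genes, at 11.43, 5.74 and 10.56 in the control, exercise control and SQH libraries. These values correspond to about 2942, 45 and 1974 reads. The exercise control stood far below both other libraries, and SQH remained below the control. The exercise control was 51.6-fold lower than the control (-5.69 ± 0.22), SQH was 28.2-fold higher than the exercise control (4.82 ± 0.22), and SQH differed from the control by -0.87 ± 0.04. By linear value Sln ranked 451 among the rows of the control library and 8249 in the exercise control. Sln (chromosome 9, 53850164 to 53854560) overlaps no other annotated gene.

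Pln was the least abundant of the 10 genes in the control and SQH libraries, at 6.65, 5.80 and 6.90 in the control, exercise control and SQH libraries, or about 107, 47 and 156 reads. The exercise control was again lowest, but by less than 2-fold (-0.85 ± 0.25). Exercise plus SQH lay above the exercise control by 1.10 ± 0.24, a call that ended under median centring (0.998) and with 10 added to each linear value (0.979), and above the control by 0.25 ± 0.18. Pln lies on chromosome 10 (53337667 to 53345987) inside Cep85l, a gene of the opposite strand, and shares 141 exonic bases with it. Cep85l was listed at 8.53, 7.90 and 7.87, above Pln in every library, and differed by -0.03 between SQH and the exercise control, where Pln differed by 1.10. Another annotated gene, Gm47644, shares 1644 exonic bases with Pln and is not listed under that name in the data.

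Sln exceeded Pln 27.5 times in the control and 12.6 times with SQH, whereas in the exercise control both genes were at the same level within counting error (ratio 0.960, log2 ratio -0.06 ± 0.30). Relative to Atp2a2, Sln was also lower in the exercise control: there was 1 Sln read to 10.1 of Atp2a2 in the control, to 59.6 in the exercise control and to 15.7 with SQH. Pln was higher relative to Atp2a2 there, at 1 read to 278 of Atp2a2 in the control, to 57.2 in the exercise control and to 198 with SQH. The inhibitor genes thus differed from Atp2a2 in opposite directions, with changes of the log2 ratio of -2.56 ± 0.22 for Sln and 2.28 ± 0.25 for Pln from control to exercise control.

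**Figure D3:**
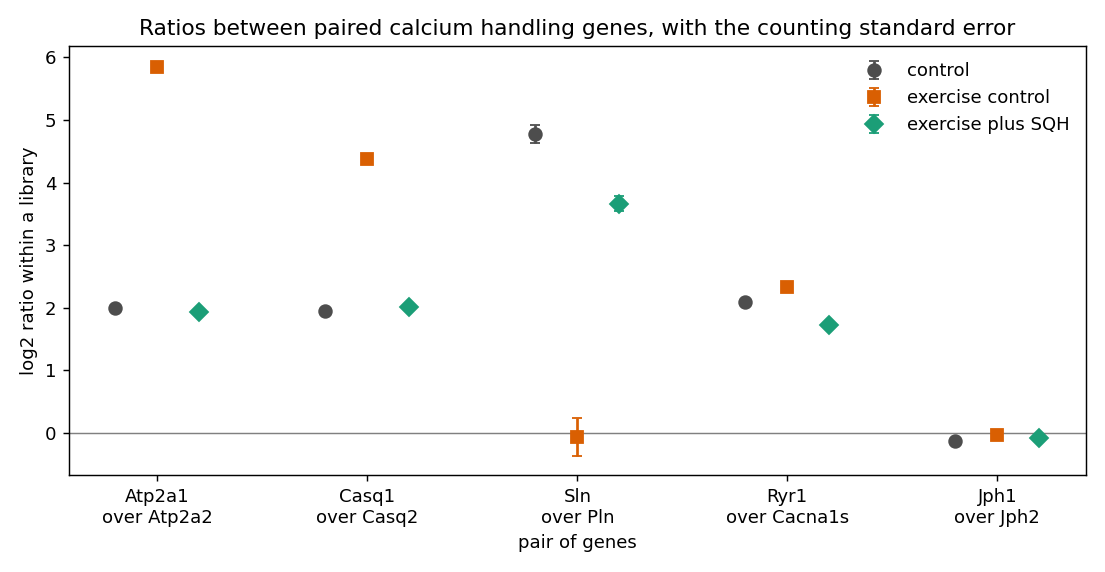
Log2 ratio within a library (vertical axis) for 5 pairs of genes (horizontal axis), 1 point per library, with the counting standard error as bars. The ratios Atp2a1 over Atp2a2 and Casq1 over Casq2 stand apart in the exercise control library, at 5.84 and 4.38, and the ratio Jph1 over Jph2 stays between -0.13 and -0.04.

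Casq2 moved far more than Casq1, as Atp2a2 moved far more than Atp2a1, but Casq1 moved less than Atp2a1. Casq2 stood at 11.40, 9.07 and 10.99 in the control, exercise control and SQH libraries, so the exercise control was the low library. It was 5.04-fold lower than the control (-2.33 ± 0.07), and SQH was 3.81-fold higher than the exercise control (1.93 ± 0.07) and -0.41 ± 0.04 from the control. Casq1, the calsequestrin gene of fast fibres that is also present in slow fibres, stood at 13.34, 13.44 and 13.00. Its 3 libraries lay within 0.44 of each other, with differences of 0.10 ± 0.02, -0.44 ± 0.02 and -0.34 ± 0.02 in the 3 comparisons, none called.

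The ratio of Casq1 to Casq2 was 3.85, 20.7 and 4.02 in the control, exercise control and SQH libraries. Casq2 made up 20.6% of the reads of both genes in the control (19.98% to 21.3%), 4.598% in the exercise control (4.21% to 5.03%) and 19.9% with SQH (19.2% to 20.6%). These shares lie close to those of Atp2a2 among the pumps in the control and SQH libraries and above that of Atp2a2 in the exercise control, where the intervals do not overlap. That closeness rests on the Atp2a1 row alone. With Rabep2 added to Atp2a1, the Atp2a2 shares were 12.7%, 0.968% and 13.2%, below the Casq2 share in each library. The log2 ratio changed by 2.43 ± 0.08 from control to exercise control and by -2.37 ± 0.08 from there to SQH. It differed by 0.07 ± 0.04 between SQH and control.

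The 250 bases before the start sites of Casq1 and Casq2 are shown because the levels of these related genes differed so much in how far they moved. They come from RefSeq on GRCm38.p6, at chr1:172219896-172220145 on the minus strand for Casq1 and chr3:102086165-102086414 on the plus strand for Casq2, each written toward the start site. Capitals mark matches to the E-box motif (CANNTG, which reads the same on both strands in this form) and, in Casq2 alone, the 10-base match to the MEF2 motif 69 bases before the start, which is the longest run of capitals and was searched on both strands. The matches do not overlap.
Casq1: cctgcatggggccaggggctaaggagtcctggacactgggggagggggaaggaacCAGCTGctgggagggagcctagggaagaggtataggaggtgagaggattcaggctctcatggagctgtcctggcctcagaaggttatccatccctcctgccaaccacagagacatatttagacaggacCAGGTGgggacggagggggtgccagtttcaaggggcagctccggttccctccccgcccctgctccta
Casq2: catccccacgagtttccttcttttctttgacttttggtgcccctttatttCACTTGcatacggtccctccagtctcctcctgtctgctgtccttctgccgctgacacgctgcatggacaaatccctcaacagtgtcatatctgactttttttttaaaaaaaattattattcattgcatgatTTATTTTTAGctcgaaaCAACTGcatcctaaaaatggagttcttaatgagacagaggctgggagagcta

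Start sites were found for 7 of the 10 genes in the RefSeq table. In the same window, E-boxes occurred in 6 of these 7 genes and in 66.2% of 32851 start sites, and the MEF2 motif in 1 of 7 and in 2.92% of all. Casq1 held E-boxes 195 and 67 bases before its start and Casq2 200 and 52 bases before its own. A match is a description of these letters and not evidence of binding. Casq1 lies on chromosome 1 (172209894 to 172219868, minus strand) and Casq2 on chromosome 3 (102086415 to 102146514, plus strand) of GRCm38. The coding sequences of Casq1 and Casq2 were identical at 69.1% of aligned bases and those of Atp2a1 and Atp2a2 at 75.2%.

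The release machinery differed little among the libraries. Ryr1, the release channel gene, stood at 14.31, 14.49 and 14.15 in the control, exercise control and SQH libraries. Its differences were 0.17 ± 0.01, -0.33 ± 0.01 and -0.16 ± 0.01 in the 3 comparisons, none of which reached 1.5-fold. Ryr1 lies on chromosome 7 (29003344 to 29125179, minus strand) and Cacna1s on chromosome 1 (136052750 to 136119822, plus strand). Gm37759, an antisense gene, shares 1309 exonic bases with Cacna1s at the end that a 3' library reads. Gm26604, also antisense, shares 864 with Ryr1. Neither is listed under that name in the data. Cacna1s, the voltage sensor gene, stood at 12.23, 12.15 and 12.43, and unlike Ryr1 it was highest with SQH (0.28 ± 0.03 against the exercise control and 0.20 ± 0.03 against the control). The ratio of Ryr1 to Cacna1s was 4.25, 5.05 and 3.31 in the control, exercise control and SQH libraries, a 1.53-fold gap between the exercise control and SQH libraries. Quantile normalization widened the difference of that log2 ratio between SQH and the exercise control from -0.61 to -0.76.

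Both junctophilin genes followed Atp2a1 in order, highest in the exercise control and lowest with SQH. Jph1, the main junctophilin gene of skeletal muscle, stood at 12.20, 12.57 and 11.94 in the control, exercise control and SQH libraries. Jph2, known best from the heart, stood at 12.33, 12.61 and 12.01. Jph1 lies on chromosome 1 (16964560 to 17097889) and Jph2 on chromosome 2 (163336242 to 163397993), both on the minus strand. Neither was called at 2-fold in any comparison, and between SQH and the exercise control they differed by -0.63 ± 0.03 and -0.59 ± 0.03. The ratio of Jph1 to Jph2 was 0.914, 0.975 and 0.948, with a log2 ratio that shifted by no more than 0.09 ± 0.04. Jph2 was highest in the exercise control, the library in which Atp2a2 and Casq2 were lowest.

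By size of range over the 3 libraries, the order was Sln (5.69), Atp2a2 (3.13), Casq2 (2.33), Pln (1.10), Atp2a1 (1.01), Jph1 (0.63), Jph2 (0.59), Casq1 (0.44), Ryr1 (0.33) and Cacna1s (0.28). Of the neighbours in this order, Pln and Atp2a1 differ in range by less than the counting error of Pln (0.24). Jph1 and Jph2 differ by about the counting error, since their log2 ratio changed by -0.04 ± 0.04 from the exercise control to SQH. Together the 10 genes made up 1.88% of the linear sum of the control library, 2.46% of the exercise control and 1.67% of SQH, most of it from Atp2a1.

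A wider list of 83 genes of muscle calcium handling was read beside these, of which 80 were found, 60 passed the minimum and 3 were at 0 in every library. Between the exercise control and the control, 1 of the 60 was called higher and 1 lower, with a median of -0.02 beside -0.04 over all rows. Between SQH and the exercise control 3 were higher and 0 lower (median 0.03, and 0.03 over all rows), and between SQH and the control 1 was higher and 0 lower (0.01, and -0.02 over all rows). The shares called were below or near those of all rows in each comparison. The called genes were Rcan1, an inhibitor of calcineurin (-1.02 ± 0.06 in the exercise control against the control and 1.39 ± 0.05 with SQH against the exercise control), Nfatc1, a transcription factor that calcineurin activates (1.06 ± 0.10 in the exercise control and 1.04 ± 0.09 with SQH, each against the control), Calu, a calcium-binding protein of the secretory pathway (1.23 ± 0.08 with SQH against the exercise control), and Micu2, a regulator of mitochondrial calcium uptake (1.002 ± 0.12 in the same comparison).

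Over all rows tested, 1.26% to 5.68% were called in a given direction and comparison, so 0 calls in a group of up to 9 genes is near that share. By role, partners of the release channel differed by at most 0.514 in all 3 comparisons, with 0 of 9 tested genes called. They include Trdn (triadin, -0.49 ± 0.02 in the exercise control and -0.46 ± 0.02 with SQH, each against the control) and Asph, whose products include junctin (-0.43 ± 0.04 in the exercise control against the control). Of 4 tested voltage sensor subunits 0 were called, and Cacng1, the gamma subunit gene, had the largest difference (0.88 ± 0.07 in the exercise control against the control). Pump relatives and regulators had 0 of 6 called. The largest differences were those of Camk2b (0.74 ± 0.06) and Camk2a (-0.65 ± 0.04) with SQH against the exercise control. In the exercise control against the control, Camk2g had the largest (0.50 ± 0.08). Mrln, which encodes the pump inhibitor myoregulin of skeletal muscle, was at -0.38 ± 0.11 in that comparison. The triad and transverse tubule genes had 0 of 8 called, and for SQH against the exercise control all 8 lay above 0, by 0.03 to 0.55. Pvalb, the cytosolic calcium buffer parvalbumin of fast fibres, was not called and had the same order as Atp2a1 (0.55 ± 0.0087, -0.89 ± 0.0088 and -0.34 ± 0.0091). Store-operated entry had 0 of 3 called, with Stim1, the calcium sensor of the reticulum, at -0.94 ± 0.05 in the exercise control against the control.

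Fibre type markers moved with the low calcium handling genes. In the exercise control against the control, 9 of 10 slow-fibre markers were called lower, with a median of -3.61 and a range of -4.07 to -0.62, and their summed linear level was 536275, 47762 and 424446 in the control, exercise control and SQH libraries. The difference of Sln was larger than that of any of these 10 markers, and Atp2a2 and Casq2 lay inside their range and above their median. For SQH against the exercise control 9 of the 10 were called higher (median 3.31), and for SQH against the control 0 of 10 were called (median -0.33). Of 12 fast-fibre markers 1 was called higher and 0 lower in the exercise control (median 0.42), with a summed level of 563820, 718941 and 495201, and Atp2a1 lay above that median. For SQH against the exercise control 0 of the 12 were called higher and 2 lower (median -0.63), and for SQH against the control 0 of the 12 were called (median -0.24). Over all rows tested, 2.95% were called higher and 5.33% lower in the exercise control against the control. The shares were 5.68% and 2.33% for SQH against the exercise control, and 1.76% and 1.26% for SQH against the control. Counts of 0 or 1 in lists of 10 or 12 markers are near these shares. The part of fibre content in the calcium handling results was not tested.

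Markers of other tissue were read as well, and those of nerve stood out. All 5 tested nerve and Schwann cell markers, of 7 listed, were called higher in the exercise control, and all 5 were called lower with SQH than in that library. The summed level of the list was 1214, 4313 and 1308 in the control, exercise control and SQH libraries. In the exercise control against the control, 2.95% of all rows tested were called higher and 5.33% lower. There 1 of 6 tested fibroblast markers was called higher and 1 of 5 endothelial markers lower. Of 4 tendon markers 2 were called higher and 1 lower, and of 2 adipocyte markers 0 in either direction. In lists this short, 0 or 1 call is not far from the share of all rows. Summed levels in the same order of libraries were 10101, 15445 and 11826 for the fibroblast list, 1845, 2385 and 1908 for the endothelial list, 755, 1088 and 897 for the tendon list, and 4085, 3484 and 5015 for the adipocyte list. The part of these cell types in the calcium handling results was not tested. Because Sln, Atp2a2, Casq2, Pln and Jph2 are also heart genes, 13 heart markers were read. None of the 13 passed the minimum, Myl7, Bmp10, Gata4 and Nkx2-5 were at 0 in every library, and the summed level of all 13 was 82.0, 31.9 and 105.1. Myh6, the alpha myosin heavy chain gene and also a heart gene, was not on that list. It stood at 13.25, 8.90 and 12.86 in the control, exercise control and SQH libraries, or about 10396, 404 and 9719 reads. The low level of the 13 markers therefore does not hold for every heart gene. Of 9 tested smooth muscle and pericyte markers 1 was called higher and 1 lower in the exercise control (median -0.17), with summed levels of 42218, 33376 and 45604 that are mostly Des, which muscle fibres also express.

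**Figure D4:**
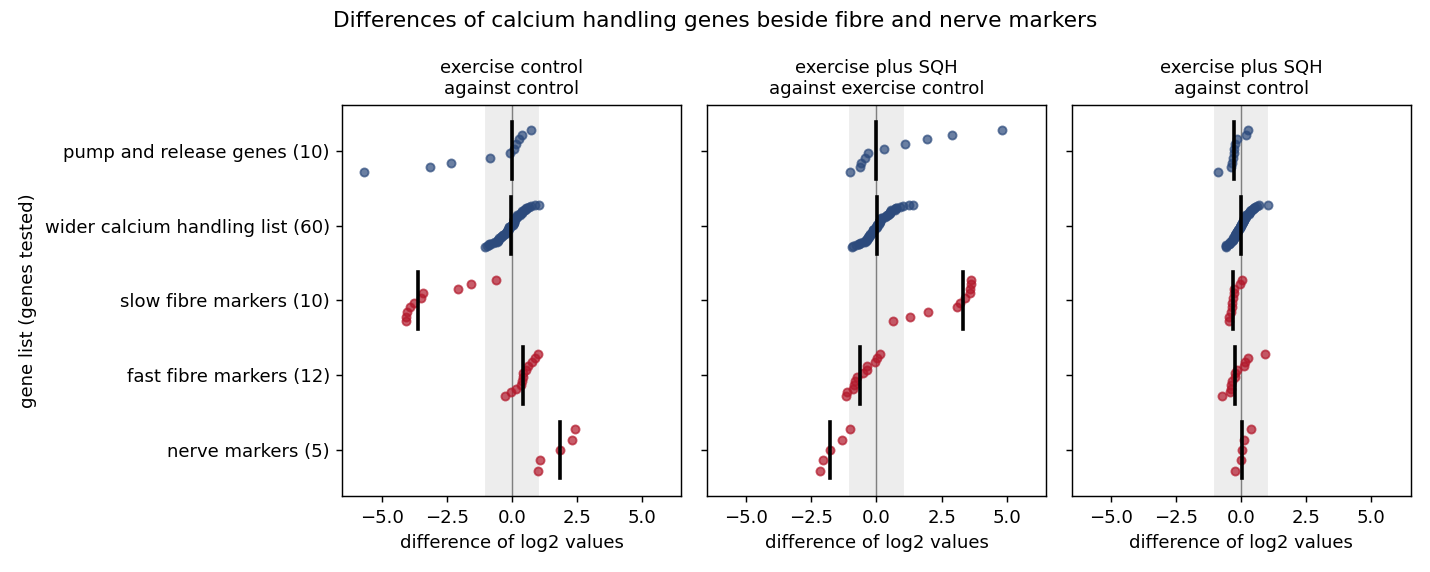
Difference of log2 values (horizontal axis) for the genes tested in each list (vertical axis), in the 3 comparisons, 1 point per gene with the list median as a black bar and differences under 2-fold in grey. In the exercise control against the control the slow-fibre markers centre on -3.61, and most genes of the wider calcium handling list lie in the grey band.

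The genes whose 3 log2 values, centred on their own mean, lay nearest to those of a called calcium handling gene were found among 7222 other protein-coding genes past the minimum. Likeness over 3 libraries of 3 groups is a description of these libraries. Atp2a2 was nearest to Npr3, the natriuretic peptide clearance receptor gene (distance 0.11), Myl3, the slow myosin light chain gene (0.21), and Rab15 (0.22). The genes nearest to Sln lay at larger distances, and were Ces5a (0.38), Paox (0.66) and Myh6, the alpha myosin heavy chain gene (0.96). In the exercise control Ces5a and Paox rested on about 2 and 3 reads. The counting error of Ces5a was 1.01 in both comparisons with that library, so its distance from Sln lies within counting error. Casq2 was nearest to Anapc1 (0.11), Ppfibp1 (0.16) and Tmem86a (0.19). Around the small shifts of Atp2a1 and Pln many genes lay close, the nearest being Psma3 (0.0036), Tmem37 (0.0096) and Sh3bgrl3 (0.021) for Atp2a1 and Oard1 (0.015), Emc8 (0.021) and Sh3gl1 (0.034) for Pln.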

How the data were processed

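Total RNA of skeletal muscle (500 ng per library) went into Lexogen QuantSeq 3' libraries, per the labels' protocols. Bowtie2, edgeR and mm10 appear in the submitters' processing notes, with neither version nor role. Which counter, annotation and strand setting the authors used is not given in the sources used here. The deposited log2 values were read as they stand, since the file headers hold only a sample code. Low linear values bunched at multiples of a step (0.939 in the control, 1.19 in the exercise control, 0.766 with SQH; 84.7% to 100% of values below 9.5 lay within 0.2 step), so approximate reads are linear values divided by the step, and no count model was fitted.

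Differences were taken between log2 values over the whole table, and no p-value was computed. Rows were tested if their mean linear value reached the median over the 15714 rows with any value above 0. All 10 genes are named, together with overlapping genes, called or largest members of the wider list and Mrln, and the 3 nearest genes by Euclidean distance. Smaller exonic overlaps were with genes not listed under their names in the data. These were Gm17224 with Casq1 (156 bases), Gm43361 with Atp2a2 (83), Gm44408 with Ryr1 (50) and Gm28376 with Jph1 (34). Members, lists and rules were chosen with earlier results of these data known. Of the wider list, 2 symbols were matched through RefSeq synonyms and 3 were not matched. Positions and coding sequences are from GENCODE M21 (GRCm38, the assembly called mm10), promoters from RefSeq. The code for the size rule and the step was tested on simulated data with counting noise only. Alternatives were 3 scalings, a pseudocount, 2 other minimums, a 1.5-fold rule and, chosen after seeing the data, Atp2a1 summed with Rabep2. Tools were Python 3.11.15, numpy 2.4.6, pandas 2.3.3, scipy 1.17.1, biopython 1.88 and matplotlib 3.10.9.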

Additional observations from a re-analysis of the deposited data

How the results depend on the processing

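With 1 library per group no library could be left out and no comparison has a replicate check. No paired analysis was possible because each group holds 1 library. Over all alternatives, 203 of 210 differences of the 10 genes kept their call, 5 were gained at 1.5-fold, 2 were lost and 0 reversed. Other minimums leave the values as they are and a 1.5-fold rule can only add calls, so neither could lose or reverse one. Of 30 differences in each setting, 29 kept their call under median centring and 29 with the pseudocount. Under quantile normalization and under upper-quartile scaling 30 did. The lost calls are both of Pln, whose reads are the fewest of the 10 genes outside the exercise control. At 1.5-fold the calls among the calcium handling genes came to 1 higher and 4 lower for the exercise control against the control (Pln gained among the lower), 4 higher and 3 lower with SQH against the exercise control, and 0 higher and 1 lower with SQH against the control. Under quantile normalization the change of the log2 ratio Atp2a1 over Atp2a2 was 3.93 for the exercise control against the control and -0.022 for SQH against the control. The cause was not tested. With the minimum at the upper quartile, which tests fewer genes, Pln was not tested. The other 9 genes were tested with the same values, so their calls could not change.

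Counts over all rows depended on the rules, in the order exercise control against control, SQH against exercise control, SQH against control. Without a minimum 1841, 2558 and 1872 rows were higher and 2418, 1638 and 1495 lower. With the minimum at the upper quartile 75, 166 and 36 were higher and 158, 52 and 22 lower. At 1.5-fold 796, 1159 and 582 were higher and 1216, 729 and 500 lower. The main counts were 232, 446 and 138 higher and 419, 183 and 99 lower. Median centring gave 266, 350 and 107 higher and 373, 261 and 123 lower, and upper-quartile scaling 294, 373 and 137 higher and 346, 236 and 99 lower. Centring moved the median of all rows by -0.10 in SQH against the exercise control.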
